A study of Arabidopsis thaliana with 4 samples.

Results

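The expansin family of Arabidopsis thaliana was followed in leaf explants at the moment of detachment and after 2 days of culture. The family was taken as 33 loci of the 37686 in the deposited table: 24 alpha-expansins (EXPA1 to EXPA18 and EXPA20 to EXPA25), 5 beta-expansins (EXPB1 to EXPB5), 3 expansin-like A genes (EXLA1 to EXLA3) and 1 expansin-like B gene (EXLB1), chosen by locus identifier. Of these, 21 had a mean of at least 1 TPM (a read count corrected for transcript length and scaled to the same total in each library) over the 4 libraries and entered the test, and 12 did not. Expansins are small secreted proteins that loosen the plant cell wall without cutting its polymers. They act best at acidic pH, which proton pumps of the plasma membrane create in the wall, and growth driven in this way is called acid growth. Wall loosening by alpha-expansins and beta-expansins has been measured directly, whereas that of the expansin-like proteins has not been established. In leaves these genes are known for cell enlargement, and in roots for the initiation and emergence of lateral roots and for root hairs.

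Wild-type Col-0 plants were raised for 12 days at 22 °C, with 16 h of light and 8 h of darkness per day, on sucrose-containing 1/2 MS medium. First-pair rosette leaves with part of the petiole were detached, and the wound with the tissue around it was collected either before culture (time 0, 2 libraries) or after 2 days on B5 medium with sucrose in the dark (2 days, 2 libraries). Time since wounding, darkness, medium and age therefore change together between the groups and cannot be told apart. All 4 libraries are wild type, and the labels do not say if libraries within a group represent different plants, so the p-values reflect spread among libraries that may be technical.

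Leaf tissue was present in both groups by its markers, although their levels moved. The summed TPM of 5 mesophyll markers was 55860 to 58590 at time 0 and 8431 to 10680 at 2 days, and 5 of 5 were lower by limma, a call made for 29.5% of all genes tested. For 3 epidermis markers the sum was 311 to 323 at time 0 and 59.4 to 74.5 at 2 days, with 2 of 3 lower. For 4 guard cell markers it was 47.1 to 52.4 and then 23.7 to 26.5, with 3 of 4 lower. For 5 vascular markers it was 221 to 224 and then 194 to 198, with 1 of 5 lower. None of these 17 markers was at 0 in any library. Fewer cells of a type and less RNA per cell cannot be told apart in such tissue samples, and the part of these shifts in the expansin results was not tested.

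After 2 days of culture the expansin pool was larger and differently composed. The 33 genes together held 1928 and 1918 TPM in the time 0 libraries and 2496 and 2525 TPM in the 2-day libraries, 1.31 times as much, or 0.192% of all transcripts at time 0 and 0.251% at 2 days. The size of this rise depended on the scaling. Rescaled without organelle and the 100 most abundant genes, the group means lay closer together, at 2009.5 TPM for time 0 and 2406.9 TPM for 2 days. With 2 libraries per group an exact two-sided permutation test of such a sum cannot give a p below 0.333. EXPA8 was the most abundant member in both time 0 libraries, with 19.1% and 18.7% of the pool, and EXPA3 in both 2-day libraries, with 17.0% and 16.8%. EXPA1 and EXPA3 were among the 5 most abundant members in all 4 libraries, as was EXPA11. The 5 most abundant genes held 60% to 60.7% of the pool at time 0 and 63.6% to 64.1% at 2 days.

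**Figure D1:**
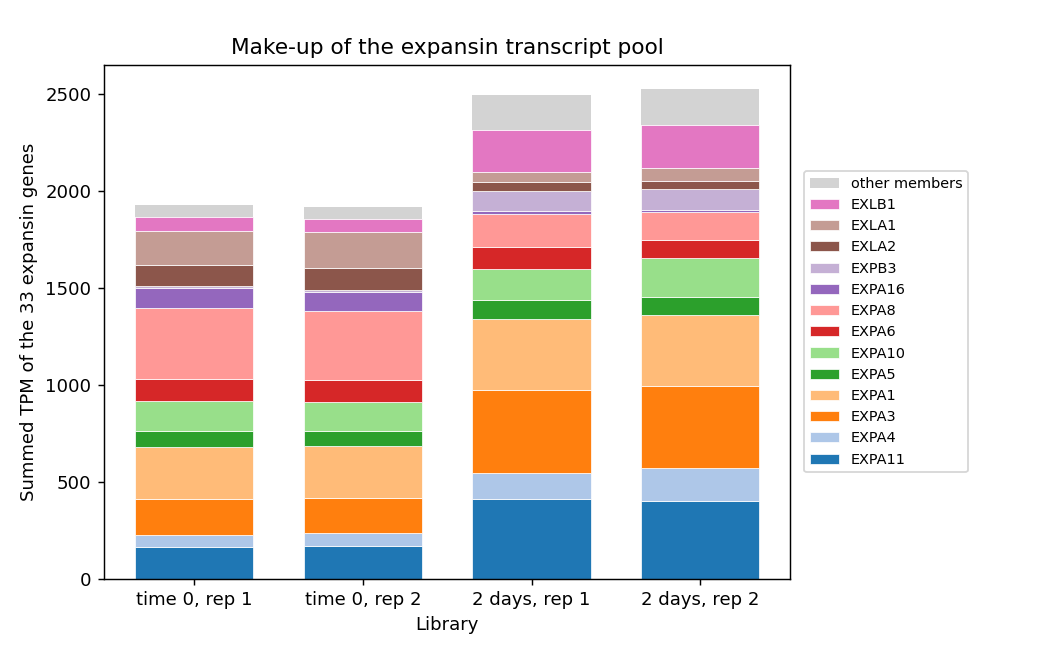
Stacked bars give the summed TPM of the 33 expansin genes in each of the 4 libraries, split by gene, with members under 4% of the pool in each library joined in grey. The bars reach 1928 and 1918 TPM at time 0 and 2496 and 2525 TPM at 2 days, with the EXPA8 segment smaller and the EXPA3 and EXPA11 segments larger at 2 days.

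Of the 21 tested members, 14 were higher at 2 days, 4 were lower and 3 did not pass (limma on log2(TPM + 1), Benjamini-Hochberg adjusted p below 0.05 over all 19078 genes tested). A call in either direction was made for 68.8% of all genes tested, a higher level for 39.2% and a lower level for 29.5%, against 85.7%, 66.7% and 19.0% of the tested expansins. The median log2 difference, 2 days minus time 0, was 0.68 over the tested members and 0.09 over all genes tested, and without the filter 0.37 over 26 members and 0.05 over 25387 genes. A rise of at least 1 log2 unit was called for 10 members (15.5% of all genes tested) and a fall of that size for 4 (10.4%). EXPA14 and EXPA17 averaged under 1 TPM at time 0 and entered the test only through their 2-day level, so that they had to differ. Both are among the 14 higher members and the 10 larger rises, and both count in the expansin shares and median above. Of the other 19 members 12 were higher and 4 lower. The groups did not overlap in 20 of 21 members, as in 86.0% of all genes tested.

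**Figure D2:**
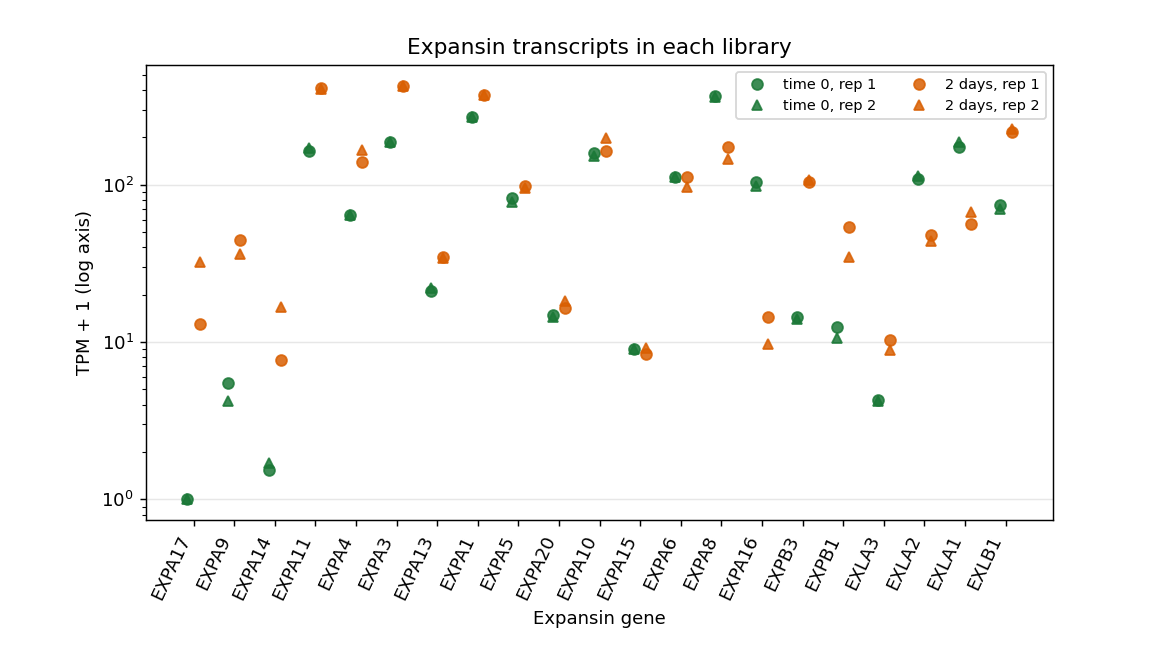
Points give TPM + 1 on a log axis for the 21 tested expansin genes, with green for time 0, orange for 2 days, circles for replicate 1 and triangles for replicate 2. The time 0 values of a gene differ by at most 1.39 times (EXPA9). The 2-day values of EXPA17 (12.0 and 31.3 TPM) and EXPA14 (6.70 and 15.6 TPM) differ by 2.61 and 2.33 times.

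The steepest rises among alpha-expansins were those of EXPA17 and EXPA14, genes of lateral root emergence, and of EXPA9. EXPA17 and EXPA14 entered the test only through their 2-day level, so their differences are given as a description. EXPA17 (AT4G01630) had 0 TPM in both libraries before culture and 12.0 and 31.3 TPM afterwards (log2 difference 4.36 ± 0.426 SE). With 0 at time 0 that difference is set by the pseudocount, being 7.61 with a pseudocount of 0.1 and 2.31 with 5, where EXPA9 reached 2.32. EXPA14 (AT5G56320) stood at 0.54 and 0.71 TPM at time 0, against 6.70 and 15.6 TPM at 2 days (log2 difference 2.80 ± 0.367 SE). With a pseudocount of 5 that difference was 1.46. Both genes were higher in replicate 2 of the 2-day group than in replicate 1, by 2.61 times for EXPA17 and 2.33 times for EXPA14, and each 2-day value lay above both time 0 values. EXPA9 (AT5G02260) went from 4.48 and 3.23 TPM to 43.2 and 35.4 TPM, 10.2 times as much on average (log2 difference 3.06 ± 0.162 SE, limma adjusted p = 6.59e-05).

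EXPA14 and EXPA17 are known to be turned on by LBD18, a transcription factor of lateral root formation that acts alongside LBD16 and LBD29. All 3 of these LBD genes averaged under 1 TPM at time 0 and entered the test only through their 2-day level, so their values are given as a description. LBD18 stood at 1.09 and 0.87 TPM at time 0, against 4.59 and 4.77 TPM at 2 days. LBD16 went from 0.03 and 0.06 TPM to 19.8 and 22.2 TPM, and LBD29 from 0 in both libraries to 12.4 and 19.0 TPM. Between the 2-day libraries LBD29 differed by 1.53 times, LBD16 by 1.12 and LBD18 by 1.04, each being higher in replicate 2. The median gap of the tested expansins in that group was 1.16 times, above those of LBD16 and LBD18. A link between the LBD genes and EXPA14 or EXPA17 was not tested.

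The root hair expansins did not appear. EXPA7 (AT1G12560) and EXPA18 (AT1G62980), which are expressed in root hair cells, had 0 TPM before culture, and among the 2-day values only EXPA7 in replicate 2 was above 0, with 0.03 TPM. Of 7 other root hair genes, 0 reached the level needed for the test. RHD6, a factor that starts root hair formation, was listed at 0 at time 0, against 0.79 and 2.25 TPM at 2 days, and its relative RSL2 at 0 at time 0, against 1.38 and 1.45 TPM at 2 days. RSL4, a factor that drives hair growth, was at 0 in 3 libraries and at 0.03 TPM in replicate 2 of the 2-day group.

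EXPA3, EXPA11 and EXPA4 each rose by more than 2 times. By mean TPM at time 0, EXPA3 ranked 3 in the family, EXPA11 ranked 5 and EXPA4 ranked 12. EXPA3 (AT2G37640) was at 186 and 184 TPM at time 0, against 424 TPM in each 2-day library (2.29 times, limma adjusted p = 2.85e-05). EXPA11 (AT1G20190) was at 163 and 169 TPM at time 0, against 409 and 403 TPM after culture (2.44 times, limma adjusted p = 2.83e-05). EXPA4 (AT2G39700) was at 62.8 and 63.0 TPM at time 0, against 138 and 165 TPM after culture (2.41 times, limma adjusted p = 0.000209). In these genes the libraries of a group lay close together, with the widest gap, 1.20 times, between the 2-day values of EXPA4.

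Smaller rises were called for 4 further alpha-expansins. EXPA1 (AT1G69530), which acts in stomatal opening and in the founder cells of lateral roots, stood at 268 TPM in each time 0 library and at 368 TPM in each 2-day library (1.38 times, limma adjusted p = 0.000641). EXPA13 (AT3G03220) went from 19.96 and 21.04 TPM to 33.7 and 33.3 TPM (1.63 times, limma adjusted p = 0.000394). EXPA5 (AT3G29030) went from 80.8 and 77.1 TPM to 96.9 and 94.8 TPM and EXPA20 (AT4G38210) from 13.8 and 13.5 TPM to 15.5 and 17.2 TPM. The calls of these last genes depended on the scaling. After quantile normalization, which moved the median of all genes tested from 0.09 to -0.06, the adjusted p by limma was 0.0504 for EXPA5 and 0.214 for EXPA20, against 0.00655 and 0.0418 as deposited. An annotated antisense gene covers 81.3% of the 50-base windows of EXPA20 transcripts, and since the sources used here do not state whether strand was used in counting, the EXPA20 level is uncertain. With 1 library left out the log2 difference ran from 0.243 to 0.311 for EXPA5 and from 0.172 to 0.315 for EXPA20. With all 4 libraries it was 0.277 for EXPA5 and 0.243 for EXPA20.

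EXPA6, EXPA10 and EXPA15 did not pass the test. EXPA10 (AT1G26770), a gene of leaf and petiole growth, was at 157 and 151 TPM at time 0, against 163 and 198 TPM at 2 days, with a 95% interval of the log2 difference of -0.04 to 0.48. EXPA6 (AT2G28950) was at 110.5 and 110.9 TPM at time 0, against 110.3 and 95.2 TPM at 2 days (interval -0.32 to 0.10). EXPA15 (AT2G03090), known from the shoot apical meristem, had 7.97 TPM in each time 0 library, against 7.40 and 8.20 TPM at 2 days (interval -0.26 to 0.20), and it was the 1 tested member whose groups overlapped. Without 2-day replicate 1 the log2 difference was 0.36 for EXPA10 and -0.21 for EXPA6. That fit has 1 library at 2 days, so the gap between the 2-day libraries is not in its spread. EXPA6 passed after rescaling without organelle and the 100 most abundant genes (limma adjusted p = 0.0497).

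Both alpha-expansins called lower had been prominent at time 0. EXPA16 (AT3G55500) fell from 103.3 and 97.1 TPM to 13.4 and 8.64 TPM, so that time 0 was 9.10 times the 2-day level (log2 difference -3.10 ± 0.191 SE, limma adjusted p = 0.000106). EXPA8 (AT2G40610), first of the family at time 0, fell from 367 and 358 TPM to 173 and 145 TPM (log2 difference -1.19 ± 0.093 SE, limma adjusted p = 0.000236). In each gene both 2-day values lay below both time 0 values.

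**Figure D3:**
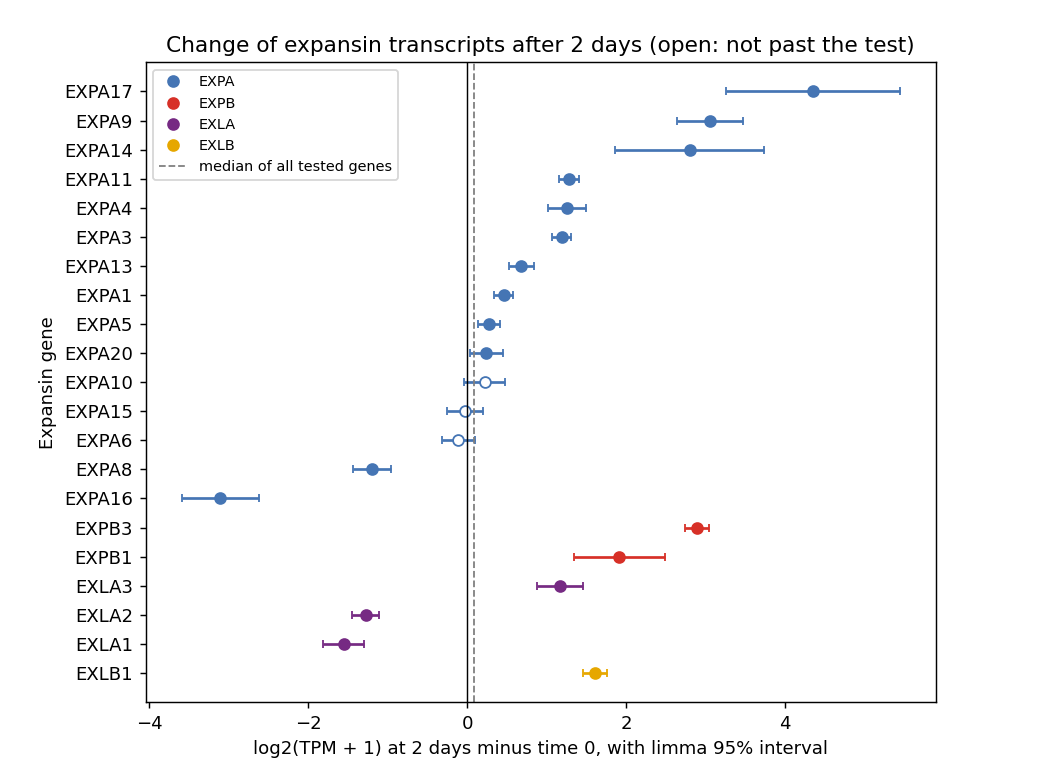
Points give the difference in log2(TPM + 1), 2 days minus time 0, for the 21 tested expansins by subfamily, with limma 95% intervals, and open points did not pass the test. EXPA17 lies farthest to the right at 4.36 and EXPA16 farthest to the left at -3.10, and the dashed line marks the median of all genes tested, 0.09.

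The beta-expansins with detectable transcripts both rose. EXPB3 (AT4G28250) went from 13.4 and 12.9 TPM to 102.2 and 106.0 TPM, 7.92 times as much (log2 difference 2.89 ± 0.057 SE, limma adjusted p = 7.74e-06). EXPB1 (AT2G20750) went from 11.4 and 9.54 TPM to 52.9 and 33.6 TPM (4.12 times, limma adjusted p = 0.00101), with a gap of 1.58 times between the 2-day libraries. EXPB2, EXPB4 and EXPB5 were listed at 0 in all 4 libraries. Summed over the subfamily, beta-expansins went from 1.29% and 1.17% of the expansin pool at time 0 to 6.21% and 5.53% at 2 days.

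The expansin-like genes divided. EXLA1 (AT3G45970) fell from 173 and 185 TPM to 55.0 and 66.2 TPM (log2 difference -1.55 ± 0.099 SE, limma adjusted p = 0.000121). EXLA2 (AT4G38400), whose loss is known to make plants more resistant to the fungus Botrytis cinerea, fell from 107.1 and 113 TPM to 46.8 and 42.9 TPM (log2 difference -1.28 ± 0.067 SE, limma adjusted p = 6.49e-05). EXLA3 (AT3G45960) was scarce throughout but rose, from 3.28 and 3.19 TPM to 9.30 and 7.85 TPM (log2 difference 1.17 ± 0.113 SE, limma adjusted p = 0.00051; with a pseudocount of 5 the difference was 0.72). EXLB1 (AT4G17030), the only member of its subfamily, rose from 73.5 and 68.6 TPM to 213 and 224 TPM (log2 difference 1.61 ± 0.060 SE, limma adjusted p = 2.46e-05). The share of the EXLA genes in the pool was 14.7% and 15.7% at time 0 and 4.45% and 4.63% at 2 days, while that of EXLB1 was 3.81% and 3.58% at time 0 and 8.55% and 8.88% at 2 days.

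Close relatives within the family did not always change alike. Each tested member was set beside the tested member with the most similar coding sequence (aligned with MAFFT, RefSeq annotation of TAIR10.1). In 14 members both genes were called, and the direction was the same for 8 and opposite for 6, where a gene and its relative can count from either side. The 8 include EXPA11 and EXPA17, each the nearest tested relative of the other (65.2% shared). EXPA17 entered the test only through its 2-day level, so it could only be called higher. They also include EXPA20, whose call depended on the scaling. These relatives were not all close, with 47.8% to 86.6% of aligned coding bases shared. Of the 6 opposite cases, 4 came from EXPA4 with EXPA16 and EXLA1 with EXLA3, and the other 2, EXPA13 (55.4% shared with EXPA16) and EXLB1 (47.8% shared with EXLA2), from distant relatives. EXPA4 and EXPA16 share 80.4% of their aligned coding bases, the highest value for either gene, and EXPA4 rose while EXPA16 fell. They belong to a group with EXPA3, EXPA6 and EXPA9, whose 5 members share 69.4% to 80.4% with each other and at most 64.9% with any other alpha-expansin. Within it the log2 differences were 3.06 for EXPA9, 1.25 for EXPA4, 1.19 for EXPA3, -0.11 for EXPA6 and -3.10 for EXPA16. EXLA1 and EXLA3 share 86.6% and lie on the same strand of chromosome 3. Between them lie 2012 bases, in which 1 annotated gene starts. EXLA1 fell while EXLA3 rose. By contrast EXPB1 and EXPB3 share 76.7% and both rose, and EXLA1 and EXLA2 share 84.7% and both fell.

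The coding stretches below are the 90 bases most alike in each pair of copies that moved in opposite directions, shown because a read must span a difference to tell the copies apart; capitals mark the bases at which the copies of a pair differ. They cover coding bases 436 to 525 of EXPA4 and 445 to 534 of EXPA16, with 7 differences, and 18 to 107 of EXLA1 and of EXLA3, with 2 differences (RefSeq, TAIR10.1, coding strand).
EXPA4: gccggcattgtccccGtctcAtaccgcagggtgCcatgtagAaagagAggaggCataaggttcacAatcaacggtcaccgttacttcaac
EXPA16: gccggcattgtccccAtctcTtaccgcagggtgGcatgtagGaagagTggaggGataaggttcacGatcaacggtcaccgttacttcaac
EXLA1: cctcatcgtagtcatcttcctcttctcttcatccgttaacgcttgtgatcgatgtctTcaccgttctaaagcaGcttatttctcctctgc
EXLA3: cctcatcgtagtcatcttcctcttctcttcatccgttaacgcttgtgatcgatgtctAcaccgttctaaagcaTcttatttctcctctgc
Over their whole aligned coding length EXPA4 and EXPA16 differ at 152 of 774 bases with no identical run over 29 bases, and EXLA1 and EXLA3 at 106 of 792 bases with a longest identical run of 57 bases. Of the 50-base windows of the EXLA1 transcripts 0.751% also occur in EXLA3, and of those of EXLA3 0.585% in EXLA1. EXPA4 and EXPA16 share no such window with any other gene.

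**Figure D4:**
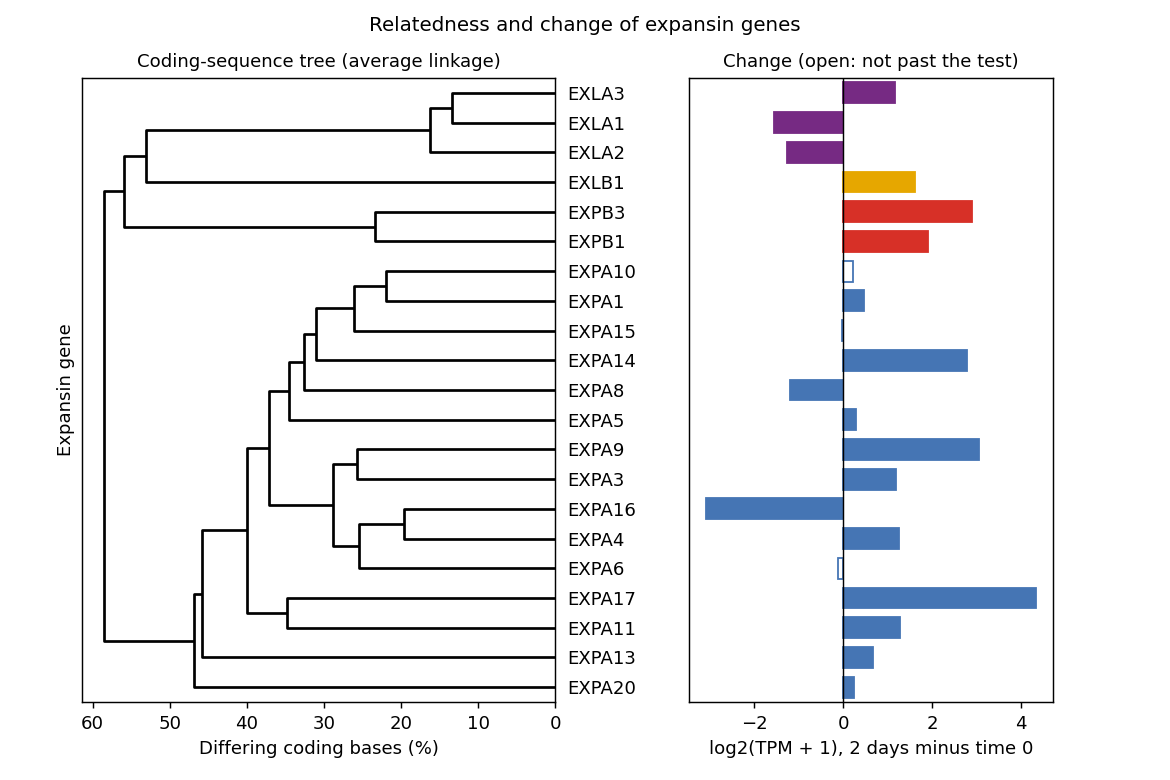
The left panel is an average-linkage tree of the 21 tested expansins by the percentage of differing coding bases, and the right panel gives for each the difference in log2(TPM + 1), 2 days minus time 0, with open bars for genes that did not pass. The neighbours EXPA4 and EXPA16 point in opposite directions (1.25 and -3.10), as do EXLA3 and EXLA1 (1.17 and -1.55).

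The sequence just upstream was examined in all 33 genes, as the 300 bases before the annotated start in TAIR10.1, whose nuclear chromosome sequences are those of TAIR10. The 6 motifs searched on both strands were the auxin response element in 2 forms (TGTCTC, with TGTCGG as the other), the G-box (CACGTG), the LOB motif of LBD factors (GCGGCG), the GCC-box of ethylene response factors (GCCGCC) and a W-box of WRKY factors (TTGACC). The LOB motif and the GCC-box can overlap each other. TGTCGG was found upstream of EXPA12, EXPB3 and EXLA3, 3 of 33 expansins, and in 4.91% of 27443 windows of all nuclear protein-coding genes. TGTCTC was found upstream of EXPA5, EXPA6, EXPA7 and EXPA10 and in 13.0% of all windows. TTGACC was found in 8 of 33 expansin windows and in 14% of all windows. CACGTG was found upstream of 2 expansins, EXPA2 and EXPB2, and in 7.09% of all windows. The LOB motif (1.97% of all windows) and the GCC-box (2.26% of all windows) were found in 0 of the 33. A match is a description of letters and not of a bound site, and a missing match says only that the letters are not in this window.

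The windows of EXLA1 and EXLA3 are shown because these nearby genes moved in opposite directions, and those of EXPB3 and EXPA17 because they had the largest log2 differences among beta-expansins and, with a pseudocount of 1, among alpha-expansins; each reads 5′ to 3′ towards the gene and capitals mark a searched motif. EXLA1 lies downstream of chr3:16895866-16896165 (plus strand) and EXLA3 of chr3:16892402-16892701 (plus strand), EXPB3 of chr4:14002125-14002424 (minus strand) and EXPA17 of chr4:700266-700565 (plus strand), all in TAIR10.1.
EXLA1: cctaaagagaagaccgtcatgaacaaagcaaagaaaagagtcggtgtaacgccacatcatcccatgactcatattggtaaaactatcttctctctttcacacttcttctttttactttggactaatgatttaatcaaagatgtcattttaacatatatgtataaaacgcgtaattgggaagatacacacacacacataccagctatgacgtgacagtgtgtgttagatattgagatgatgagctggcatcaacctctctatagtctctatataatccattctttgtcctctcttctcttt
EXLA3: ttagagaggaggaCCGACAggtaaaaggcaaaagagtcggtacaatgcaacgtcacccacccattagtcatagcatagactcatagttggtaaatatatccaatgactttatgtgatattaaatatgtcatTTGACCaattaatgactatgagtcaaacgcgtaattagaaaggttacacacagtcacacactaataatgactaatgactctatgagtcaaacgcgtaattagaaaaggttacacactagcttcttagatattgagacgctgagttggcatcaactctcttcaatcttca
EXPB3: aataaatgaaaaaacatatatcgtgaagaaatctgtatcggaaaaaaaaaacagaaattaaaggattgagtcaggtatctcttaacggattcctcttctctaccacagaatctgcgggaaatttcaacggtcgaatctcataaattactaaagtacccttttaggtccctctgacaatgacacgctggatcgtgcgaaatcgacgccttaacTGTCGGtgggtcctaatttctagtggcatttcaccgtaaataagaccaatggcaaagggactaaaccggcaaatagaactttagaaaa
EXPA17: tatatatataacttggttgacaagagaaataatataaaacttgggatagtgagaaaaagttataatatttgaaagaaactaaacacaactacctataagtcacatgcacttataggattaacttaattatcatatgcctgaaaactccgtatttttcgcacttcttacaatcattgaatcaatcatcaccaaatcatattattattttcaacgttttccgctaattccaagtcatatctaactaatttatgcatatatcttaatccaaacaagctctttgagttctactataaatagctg
EXLA3 holds TGTCGG on the opposite strand, beginning 287 bases before the start, and TTGACC at 169 bases before it, and EXPB3 holds TGTCGG at 88 bases before it. The windows of EXLA1 and EXPA17 hold none of the 6 motifs.

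The 12 members under a mean of 1 TPM stayed low in every library, with 1.49 TPM as the highest single value. Of these, 7 were listed at 0 in all 4 libraries. The member just outside the limit was EXPA12 (AT3G15370), with a mean of 0.528 TPM, listed at 0 and 0.11 TPM at time 0, against 1.49 and 0.51 TPM at 2 days, and the lowest inside it was EXPA14 with a mean of 5.88 TPM. EXPA2, known from the endosperm of germinating seeds, was at 0.07 and 0.04 TPM at time 0 and listed at 0 at 2 days. EXPA21 to EXPA25 lie within 14.4 kb of chromosome 5. EXPA21 stood between 0.14 and 0.39 TPM, EXPA24 was at 0.09 TPM in 1 time 0 library and listed at 0 in the others, and EXPA22, EXPA23 and EXPA25 were listed at 0 in all 4. EXPA23 and EXPA25 are 97.5% alike, and 52.2% of the windows of EXPA23 and 51.5% of those of EXPA25 occur in the other gene, so the reads of these copies would be divided by estimate. An antisense gene covers 32.9% of the EXPA21 windows.

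Proton pumps, which acidify the wall and so set the conditions for expansins, were called about as often as genes in general. Of 11 AHA genes 7 were tested, 3 were higher, 2 lower and 2 did not pass (71.4% called, against 68.8% of all genes tested). AHA2, the main pump of roots and growing tissue, went from 342 and 332 TPM to 695 and 633 TPM (log2 difference 0.98, limma adjusted p = 0.000149). AHA10, scarce in these samples, went from 0.86 and 1.18 TPM to 2.11 and 2.10 TPM (log2 difference 0.62, limma adjusted p = 0.0151). Among those that fell, AHA8 had the largest difference, from 8.44 and 8.86 TPM to 4.59 and 4.04 TPM (limma adjusted p = 0.000978), followed by AHA5, from 15.7 and 15.1 TPM to 9.58 and 8.42 TPM (limma adjusted p = 0.00129). The summed TPM of all 11 pumps was 776 and 763 at time 0 and 1246 and 1175 at 2 days.

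Clade D protein phosphatases (PP2C-D) include members that switch these pumps off by removing a phosphate. They were lower in 5 of 9 tested members, higher in 3 and not past the test in 1. A lower level was called for 55.6% of these genes, against 29.5% of all genes tested, and a higher level for 33.3%, against 39.2%. A call in either direction was made for 88.9%, against 68.8%. PP2C-D1 (AT5G02760) fell from 275 and 276 TPM to 43.0 and 34.7 TPM (log2 difference -2.80, limma adjusted p = 2.46e-05). PP2C-D7 (AT5G66080) fell from 70.1 and 69.8 TPM to 13.6 and 10.7 TPM (log2 difference -2.44, limma adjusted p = 4.35e-05). PP2C-D9 (AT5G06750) rose from 7.77 and 8.31 TPM to 16.6 and 16.3 TPM, and PP2C-D8 (AT4G33920) from 21.8 and 23.4 TPM to 28.8 and 25.4 TPM (limma adjusted p = 0.00026 and 0.0453). The sum over the 9 genes was 771 and 776 TPM at time 0 and 398 and 369 TPM at 2 days.

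Endoglucanases of glycosyl hydrolase family 9, which cut or trim glucan chains of the wall, were higher in 7 of 12 tested members, lower in 3 and not past the test in 2, with 12 others under the limit of 1 TPM. A higher level was called for 58.3% of these genes, against 39.2% of all genes tested, and a lower level for 25.0%, against 29.5%. A call in either direction was made for 83.3%, against 68.8%. CEL3 and GH9A2 averaged under 1 TPM at time 0 and entered the test only through their 2-day level, and of the other 10 members 5 were higher and 3 lower. CEL3 (AT1G71380) had 0.02 and 0 TPM at time 0, against 10.3 and 10.7 TPM at 2 days. GH9A2 (AT1G65610) went from 0.02 and 0.04 TPM to 8.70 and 7.95 TPM. GH9B12 (AT2G44570), chosen after its values were seen, lay just under the limit and was not tested, with 1.92 and 1.81 TPM at time 0, against 0.13 and 0.12 TPM at 2 days. CEL5 (AT1G22880) fell from 11.1 and 10.4 TPM to 5.25 and 5.01 TPM, and GH9B18 (AT4G39010) from 1.99 TPM in both libraries to 1.12 and 0.94 TPM (limma adjusted p = 0.000451 and 0.0168).

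**Figure D5:**
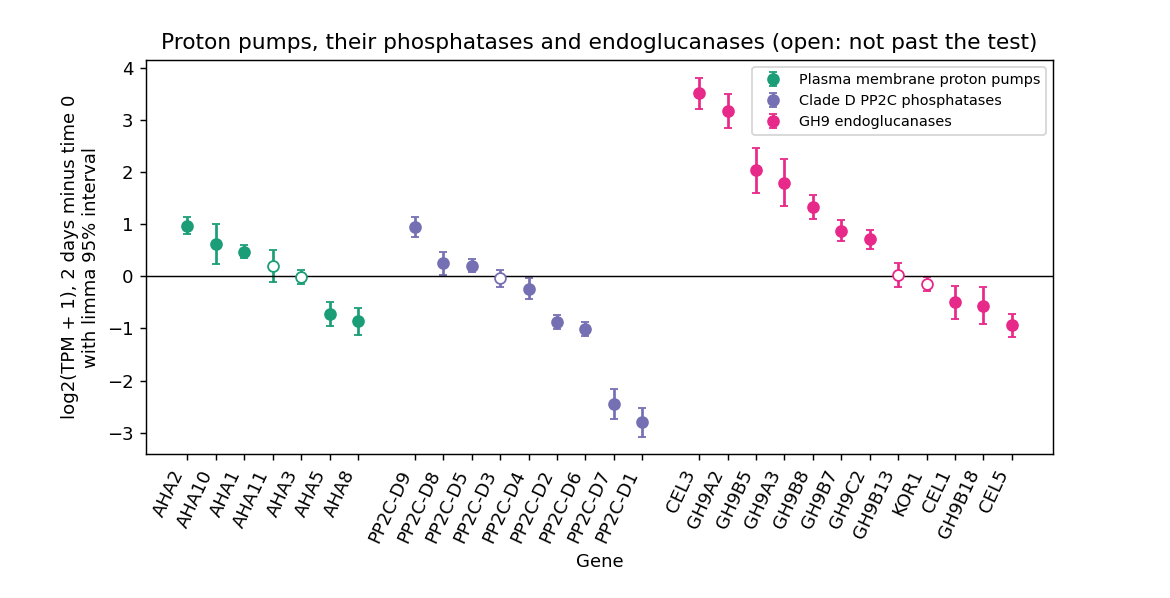
Points give the difference in log2(TPM + 1), 2 days minus time 0, with limma 95% intervals, for the tested proton pumps, clade D phosphatases and family 9 endoglucanases, and open points did not pass the test. The endoglucanases reach 3.51 (CEL3) and the phosphatases -2.80 (PP2C-D1), while each pump lies between -0.86 and 0.98.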

How the data were processed

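RNA was sequenced from 2 libraries at time 0 and 2 after 2 days of culture, grouped by sample title. The authors deposited 1 table of TPM per gene and library, rounded to 2 decimals, and per the submitters' processing notes made with Trim Galore 0.5.0, STAR 2.7.2b and RSEM 1.3.2 on TAIR10. Neither the annotation release nor the strand setting is given in the sources used here. Each column sums to 1000000 within rounding, so depth is unknown and no count test, counting interval or detection floor was applied. The labels give no batch.

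The 19078 genes averaging 1 TPM or more were fitted on the log2(TPM + 1) scale by limma 3.58.1 (R 4.3.3, mean-variance trend), and their p-values were adjusted together by Benjamini-Hochberg. Differences on this scale understate changes of low genes. The procedure was also run on simulated data in which few genes changed, unlike here, so that run gives no error rate for these data. Members and gene lists were chosen with earlier results of these data known. All tested members are named; in other lists up to 2 called genes per direction with the largest difference. Sequences came from RefSeq TAIR10.1 by locus tag, which matched 33 of 33 members, with Python 3.11.15 and MAFFT 7.526.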

Additional observations from a re-analysis of the deposited data

How the results depend on the processing

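Over the pseudocounts, filters, scalings and trend setting tried, 12 to 14 expansins were higher and 4 to 5 lower, against 14 and 4. Calls for EXPA5, EXPA6 and EXPA20 changed under at least 1 of these alternatives, and those of the other tested members under none. Fits with a library left out keep 1 library in a group and were read by effect size only. EXPA15, never called, ran from -0.095 to 0.037 (log2) with a library left out. With the replicate number as a block 13 were higher and 4 lower, EXPA20 being lost (limma adjusted p = 0.0806); the numbers share no stated origin, and deviations of same-numbered libraries correlated at -0.067 over 19078 genes. Without a filter 5 of 8 root hair and LBD genes were higher, against 3, because RHD6 and RSL2 were then tested. Both were at 0 in each time 0 library and could only be called higher. The 3 are the LBD genes, which passed the filter only through their 2-day level, so these counts are given as a description. Of all 25387 genes tested without a filter, 7960 were higher. Rescaling without organelle and the 100 most abundant genes put the time 0 family sum at 2009.5 TPM and the 2-day sum at 2406.9 TPM, against 1922.7 and 2510.7. Quantile normalization gave 6385 higher and 7187 lower genes in the whole table, against 7485 and 5636, and rescaling 6459 and 6620. Depth is unknown, so a gene listed at 0 may lie under an unknown limit, and 2 libraries per group give wide intervals where they differ, as for EXPA14 (1.86 to 3.74) and EXPA17 (3.26 to 5.45).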
